A study of Mus musculus with 12 samples.

Results

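Mouse spleens were compared for 9 genes of mast cell and basophil biology: the mast cell proteases Cma1, Mcpt4, Cpa3 and Tpsb2, the basophil protease Mcpt8, the IgE receptor chains Fcer1a and Ms4a2, the histamine-forming enzyme Hdc and the transcription factor Gata3. They were taken by symbol, and all 9 were found once among the 21004 genes of the deposited expression table. The values are FPKM, fragment numbers divided by the length of the transcript and by the mapped total of the library, so levels can be set against each other per length. Total spleen RNA came from ICR mice aged 8 weeks. The 12 libraries were labelled as 3 from control mice, 3 from mice given busulfan, 3 from mice given L.J. and 3 from mice given both, and the L.J. dose was 10 mg/kg in each case. Busulfan is an alkylating agent that depletes blood-forming cells. The labels give no busulfan dose or timing, no sex of the mice and no full name for L.J. The design text speaks of FMT in a spleen injured by busulfan and does not say how FMT relates to L.J. Whether the libraries of a group stem from different mice is not labelled, and p-values therefore measure only the spread among libraries, part of which may be technical.

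Mast cells and basophils are rare granulated cells that bind IgE through a high-affinity receptor and release histamine and proteases when the receptor is crosslinked. Mast cells mature in tissues, and connective-tissue mast cells of the mouse store chymases, tryptases and carboxypeptidase A3. Basophils mature in bone marrow, circulate in blood and enter the spleen, and in the mouse they make Mcpt8 in place of most mast cell proteases. Factors of the GATA family bind DNA words around GATA and take part in the development of both cell types.

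Cma1, Mcpt4 and Mcpt8 lie in 1 cluster of serine protease genes on chromosome 14, which spans 144.0 kb from Cma1 to Mcpt8 (chr14:55941451-56085499, GRCm38.p6). Mcpt4 and Mcpt8 are 19.9 kb apart. Cpa3 lies at chr3:20215616-20242209, Tpsb2 at chr17:25366308-25368096, Ms4a2 at chr19:11615517-11623790, Fcer1a at chr1:173221269-173227232, Hdc at chr2:126593659-126624025 and Gata3 at chr2:9857078-9887953. The promoters of the 3 cluster members are shown because these neighbours had unlike levels across the groups, and that of Ms4a2 because it held the most GATA words of the 8 promoters found in RefSeq (GRCm38.p6). Each runs 5′ to 3′ from 250 bases before the start site to 50 bases after it. Capitals mark GATA words, searched on both strands: the letters GATA preceded by A or T and followed by A or G, or the reverse complement of that run.
Cma1, chr14:55944626-55944925, minus strand: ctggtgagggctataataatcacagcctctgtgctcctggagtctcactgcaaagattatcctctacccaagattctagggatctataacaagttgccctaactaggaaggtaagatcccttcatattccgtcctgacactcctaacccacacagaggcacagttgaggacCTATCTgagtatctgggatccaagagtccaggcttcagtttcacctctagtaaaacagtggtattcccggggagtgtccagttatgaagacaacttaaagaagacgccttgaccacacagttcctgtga
Mcpt4, chr14:56062261-56062560, minus strand: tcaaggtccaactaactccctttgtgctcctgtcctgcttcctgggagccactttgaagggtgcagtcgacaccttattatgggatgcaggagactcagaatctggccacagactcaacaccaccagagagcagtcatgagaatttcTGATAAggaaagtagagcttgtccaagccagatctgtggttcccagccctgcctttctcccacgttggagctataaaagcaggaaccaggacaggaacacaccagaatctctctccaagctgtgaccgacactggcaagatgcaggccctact
Mcpt8, chr14:56085148-56085447, minus strand: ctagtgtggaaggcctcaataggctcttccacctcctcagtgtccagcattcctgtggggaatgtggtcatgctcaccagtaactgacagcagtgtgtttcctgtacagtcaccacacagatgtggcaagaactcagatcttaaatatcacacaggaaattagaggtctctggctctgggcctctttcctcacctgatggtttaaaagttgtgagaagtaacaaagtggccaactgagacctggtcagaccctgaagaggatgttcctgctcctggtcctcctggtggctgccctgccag
Ms4a2, chr19:11623670-11623969, minus strand: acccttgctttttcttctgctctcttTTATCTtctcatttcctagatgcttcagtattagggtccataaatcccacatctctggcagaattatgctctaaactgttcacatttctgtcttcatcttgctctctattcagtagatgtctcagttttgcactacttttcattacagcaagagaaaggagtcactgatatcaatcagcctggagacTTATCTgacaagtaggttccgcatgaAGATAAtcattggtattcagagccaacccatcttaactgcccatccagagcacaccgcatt
Cma1 held 1 such word, whose first base lay 79 bases before the start site, Mcpt4 held 1 at 103 bases before it, and Mcpt8 held none. Ms4a2 held 3, at 224, 37 and 11 bases before the start site. Positions count from the start site of the promoter set, which is not always the outermost of the gene. The window printed for Mcpt8 lies wholly inside the span of the gene, so bases further 5′ were not searched. For Ms4a2 the start site lies inside the gene span given above, and so do the words at 37 and 11 bases before it. One of these words was present in 7 of the 8 promoters, and in 29.8% of the 32851 promoters in the table. Among the 7 was Gata3, whose only word lay 37 bases after the start site. The windows of Gata3 (chr2:9878551-9878850) and Hdc (chr2:126618629-126618928) lie wholly inside the gene spans given above. A second motif, the E-box written as CATGTG on either strand or as the palindrome CACGTG, was found in 1 of the 8, that of Fcer1a, and in 20.4% of all promoters. A match of letters is a description and does not show binding.

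All 9 genes were low in spleen, with 12-library medians between 0.12 FPKM for Fcer1a and 3.54 FPKM for Gata3. Cd3e, a chain of the T cell receptor complex, ran from 26.0 to 104 FPKM in the same libraries. Of 16 further mast cell genes in the table, 11 averaged at least 1 FPKM in at least 1 group, among them Kit at 5.81 to 11.2 FPKM and Hpgds, a prostaglandin D synthase, at 6.24 to 14.5 FPKM, both of which other spleen cells also make. Among the other 5, Mrgprb2, a receptor of connective-tissue mast cells, reached at most 0.03 FPKM, Mcpt9 at most 0.03 FPKM and the tryptase Tpsg1 at most 0.14 FPKM. The deposited values carry no read numbers, so the depth behind a level is unknown, and at levels near 1 FPKM single fragments can weigh. In bulk RNA fewer cells of a type and less RNA per cell cannot be told apart.

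Differences were tested for all genes that averaged at least 1 FPKM in at least 1 group, with limma on log2(FPKM + 1) and Benjamini-Hochberg adjustment over the 13138 genes tested, and a gene was called at an adjusted p under 0.05. Of the 9 genes, 8 passed this filter and Fcer1a did not. In busulfan with L.J. against busulfan, 1 of the 8 was called, Cma1, beside 1.66% of all genes tested, and 3 of the 8, Cma1, Mcpt8 and Ms4a2, had an unadjusted p under 0.05, beside 23.2% of all genes. In busulfan against control limma called 0 of the 8, beside 0.0304% of all genes tested, and 2 of the 8, Mcpt8 and Ms4a2, had an unadjusted p under 0.05, beside 12.2% of all genes. In L.J. against control it called 0 of the 8, beside 0.0304% of all genes, with 1 at an unadjusted p under 0.05, beside 8.91% of all genes. In busulfan with L.J. against control it called 0 of the 8, beside 0.0609% of all genes, with 1 at an unadjusted p under 0.05, beside 19.0% of all genes. In busulfan with L.J. against L.J., and in the interaction of busulfan and L.J., it called 0 of the 8 beside 0% of all genes, and 0 of the 8 had an unadjusted p under 0.05, beside 5.61% and 11.5% of all genes.

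**Figure D1:**
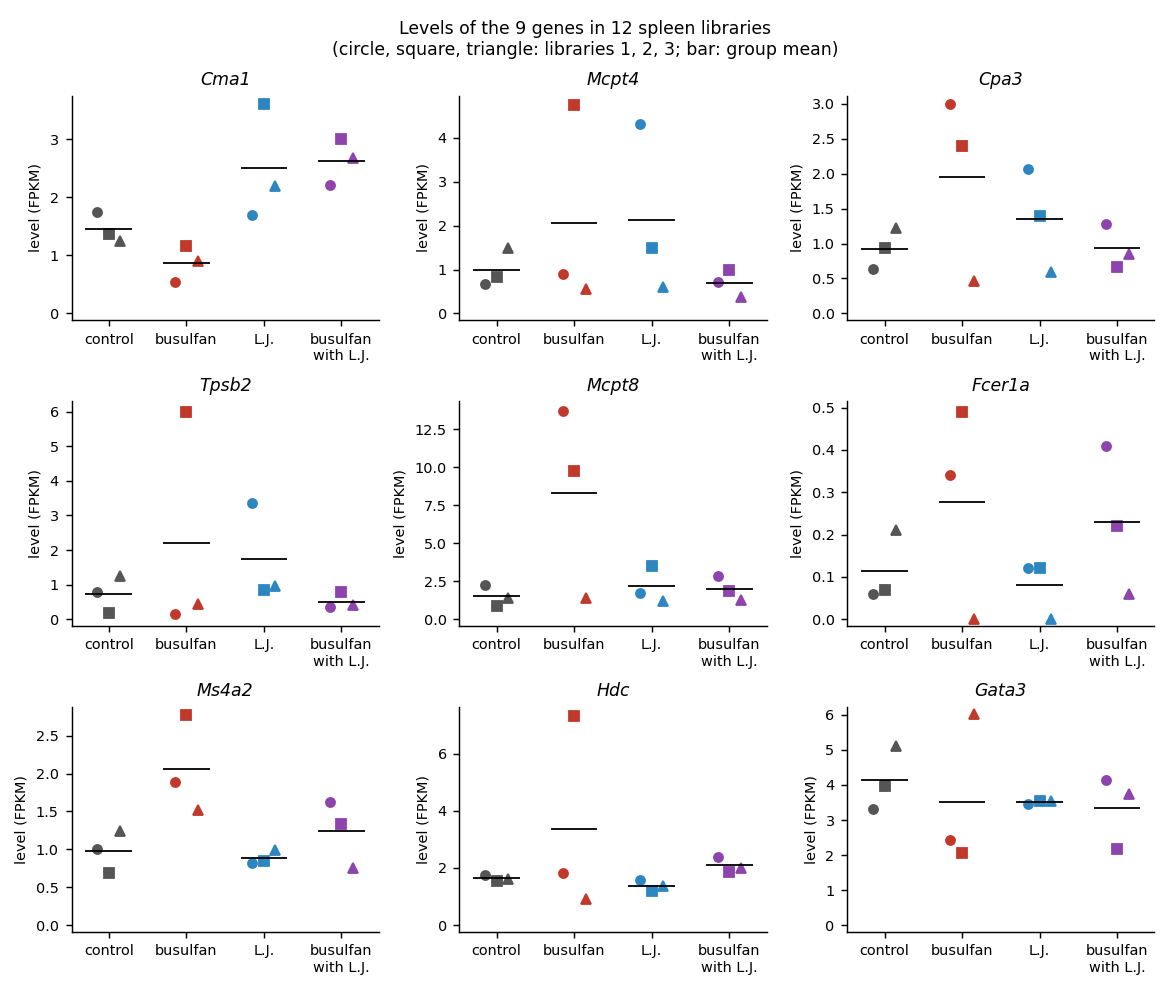
FPKM of each of the 9 genes (vertical axis, linear from 0, own scale per gene) in the 4 groups (horizontal axis), with 1 symbol per library and a bar at the group mean. Cma1 is lowest in the busulfan group, Mcpt8 stands at 13.7 and 9.78 FPKM in 2 busulfan libraries, and Mcpt4 and Tpsb2 are highest in busulfan library 2 and L.J. library 1.

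Some libraries stood apart from their groups before any of these genes was considered. The summed level of 23 pancreatic acinar genes, of which none was at 0 in all libraries, was 9.57 to 11 FPKM in the control libraries, 224 to 60000 FPKM in the busulfan libraries, 102 to 6780 FPKM in the L.J. libraries and 15.2 to 216 FPKM in the libraries of busulfan with L.J. It was highest in busulfan libraries 1 and 2 and L.J. library 3. The same busulfan libraries 1 and 2 had summed levels of 15 neutrophil genes of 30000 and 12800 FPKM, against 457 to 1820 FPKM in the other 10. Results below are given with and without such libraries where that matters. Their part in the results was not tested beyond those values.

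Cma1, the mouse chymase of connective-tissue mast cells, was the member called by the test. It stood at 1.74, 1.37 and 1.24 FPKM in the control libraries, at 0.54, 1.16 and 0.90 FPKM in busulfan, at 1.70, 3.6 and 2.19 FPKM in L.J., and at 2.21, 3.01 and 2.68 FPKM in busulfan with L.J. Every library of busulfan with L.J. was above every busulfan and every control library, and every busulfan library was below every library of the other 3 groups. Group means were 2.63 ± 0.40 FPKM (SD, n = 3) in busulfan with L.J., 2.50 ± 0.99 FPKM in L.J., 1.45 ± 0.26 FPKM in control and 0.87 ± 0.31 FPKM in busulfan. In that order, busulfan with L.J. overlapped L.J. and L.J. overlapped control, while control and busulfan did not overlap.

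On the log2(FPKM + 1) scale, which understates the change of genes this low, Cma1 rose by 0.97 (SE 0.20) in busulfan with L.J. against busulfan (limma adjusted p = 0.0435). The difference between busulfan and control was -0.40 (SE 0.20, adjusted p = 0.444), that between L.J. and control 0.48 (adjusted p = 0.548), and that between busulfan with L.J. and control 0.57 (adjusted p = 0.201). Busulfan with L.J. and L.J. differed by 0.09 (adjusted p = 0.995). The interaction, which asks whether L.J. moved Cma1 by another amount with busulfan than without it, was 0.49 (SE 0.28, adjusted p = 0.53). The comparisons share libraries, so these values are not independent of each other.

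The call for Cma1 lay near the threshold. It held in 5 of the 19 alternatives run, with differences from 0.70 to 1.54 and adjusted p from 0.0245 to 0.246, and the direction was the same in all 19. It was lost when 1 of 9 libraries was left out in turn: each control library, each library of busulfan with L.J., busulfan library 2, and L.J. libraries 2 and 3, with adjusted p up to 0.141. Without busulfan libraries 1 and 2 and L.J. library 3 together, which leaves the busulfan group with 1 library assumed to vary like the others, the difference was 0.93 (adjusted p = 0.15). With the acinar level as a covariate it was 0.70 (adjusted p = 0.246). Of the 50-base stretches of the Cma1 transcript, 5.38% were shared with the gene model Gm48934.

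**Figure D2:**
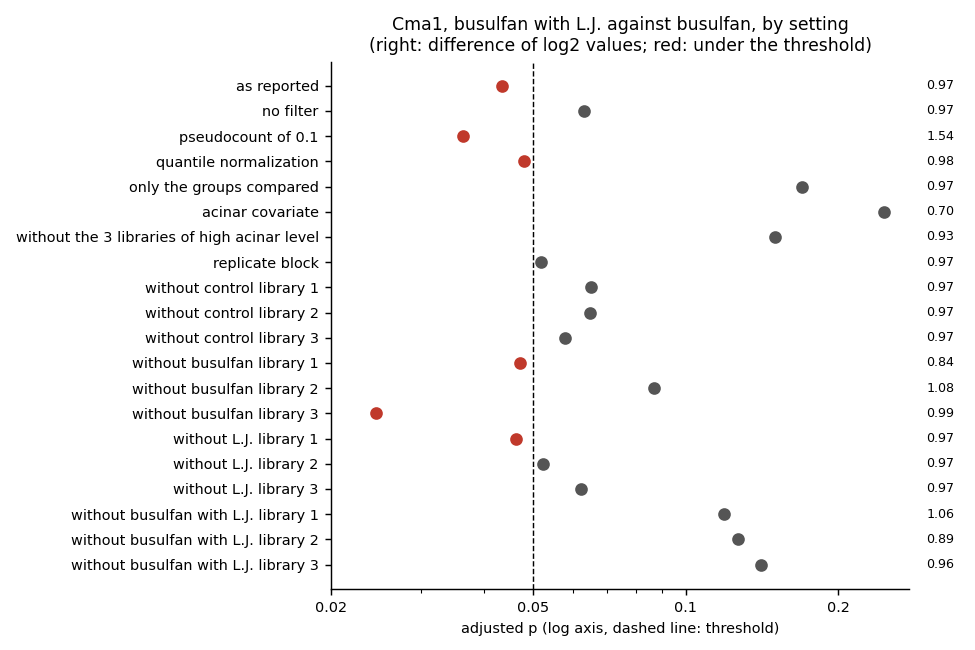
Adjusted p of Cma1 in busulfan with L.J. against busulfan (horizontal axis, log scale) under the reported fit and 19 alternatives (vertical axis), with the log2 difference of each printed at the right. Red points lie under the dashed threshold of 0.05, and the differences range from 0.70 to 1.54.

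Between Cma1 and Mcpt4 lies Mcpt1, a chymase known from mucosal mast cells. Its level was 0.36, 1.19 and 0.56 FPKM in control, 0.11, 0.27 and 0.12 FPKM in busulfan, 1.63, 2.74 and 0.78 FPKM in L.J. and 0.23, 0.17 and 0.18 FPKM in busulfan with L.J. Every control and L.J. library was above every library of the 2 groups that received busulfan. In this it differed from Cma1, whose levels with busulfan and L.J. were among the highest. Mcpt1 was not called, with an adjusted p of 0.444 in busulfan against control and of 0.867 in busulfan with L.J. against L.J.

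Mcpt4, another chymase of connective-tissue mast cells, was at 0.67, 0.83 and 1.5 FPKM in control, 0.89, 4.74 and 0.56 FPKM in busulfan, 4.32, 1.48 and 0.60 FPKM in L.J., and 0.71, 0.98 and 0.38 FPKM in busulfan with L.J. The tryptase Tpsb2 was at 0.79, 0.19 and 1.24 FPKM in control, 0.16, 6.0 and 0.45 FPKM in busulfan, 3.35, 0.86 and 0.97 FPKM in L.J., and 0.35, 0.78 and 0.40 FPKM in busulfan with L.J. Both genes were highest in busulfan library 2 and next highest in L.J. library 1, 2 libraries of different groups. For Mcpt4 all 4 groups overlapped. For Tpsb2 every L.J. library was above every library of busulfan with L.J., and the other pairs of groups overlapped.

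Across the 12 libraries Tpsb2 was the gene most like Mcpt4 of 13137 candidates, with a Pearson r of 0.91 and a Spearman rho of 0.57 on the log2(FPKM + 1) scale. Without busulfan library 2 and L.J. library 1 the r was 0.45, so the likeness rested on those 2 libraries. Mcpt4 differed by 0.38 (SE 0.49, adjusted p = 0.753) in busulfan against control and by -0.62 (SE 0.49, adjusted p = 0.476) in busulfan with L.J. against busulfan. Tpsb2 differed by 0.43 (SE 0.58, adjusted p = 0.764) and by -0.60 (SE 0.58, adjusted p = 0.563). Without busulfan library 2 alone, the differences between busulfan and control turned to -0.20 for Mcpt4 and -0.38 for Tpsb2. Of the 50-base stretches of the Mcpt4 transcript, 5.48% occurred in Cma2 or Mcpt9, and Cma2 reached at most 0.36 FPKM.

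Cpa3, a carboxypeptidase stored in mast cell granules and also made by basophils, was at 0.63, 0.93 and 1.22 FPKM in control, 2.99, 2.39 and 0.46 FPKM in busulfan, 2.07, 1.40 and 0.59 FPKM in L.J., and 1.28, 0.66 and 0.85 FPKM in busulfan with L.J. Busulfan libraries 1 and 2 were the highest of all 12 and busulfan library 3 the lowest, and all groups overlapped. Cpa3 differed by 0.50 (SE 0.35, adjusted p = 0.561) in busulfan against control and by -0.50 (SE 0.35, adjusted p = 0.412) in busulfan with L.J. against busulfan. The difference between busulfan and control was 0.22 without busulfan library 1, 0.94 (adjusted p = 0.0616) without busulfan library 3 and 0 with the acinar covariate. Without busulfan library 3 the difference between busulfan with L.J. and busulfan was -0.94 (adjusted p = 0.0468), and without busulfan libraries 1 and 2 and L.J. library 3 it was 0.39 (adjusted p = 0.425). Thus both its size and its sign depended on which busulfan libraries entered.

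Mcpt8, the protease that marks mouse basophils, had the widest range of the proteases in FPKM, though Tpsb2 varied more in proportion. It was at 2.28, 0.90 and 1.40 FPKM in control, 13.7, 9.78 and 1.41 FPKM in busulfan, 1.76, 3.53 and 1.20 FPKM in L.J., and 2.88, 1.84 and 1.29 FPKM in busulfan with L.J. Busulfan libraries 1 and 2 were above all other libraries, while busulfan library 3 lay within the control range. Prss34, a second protease of mouse basophils, was likewise highest in busulfan libraries 1 and 2, at 9.53 and 6.26 FPKM, against 1.31 FPKM in busulfan library 3 and 0.53 to 3.50 FPKM in the other 9 libraries.

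Mcpt8 differed by 1.56 (SE 0.56, adjusted p = 0.314) in busulfan against control and by -1.31 (SE 0.56, adjusted p = 0.196) in busulfan with L.J. against busulfan. Its interaction was -1.60 (SE 0.79, adjusted p = 0.477). None of these was called. In the fit without busulfan library 3 the differences were 2.35 (adjusted p = 0.00377), -2.10 (adjusted p = 0.0053) and -2.39 (adjusted p = 0.0224). That fit also called many more of all genes, 829, 1378 and 511 of those tested. Without busulfan libraries 1 and 2 and L.J. library 3, the difference between busulfan and control was -0.03 (adjusted p = 0.997).

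Genes of neutrophils and granulocyte precursors were high in the same libraries as Mcpt8. Mpo, the myeloperoxidase of granulocyte precursors, was at 768 and 241 FPKM in busulfan libraries 1 and 2, at 19.7 FPKM in busulfan library 3 and at 9.76 to 30.8 FPKM elsewhere. Ctsg, the neutrophil protease gene next to Mcpt8, was at 443 and 101 FPKM in those 2 libraries, at 5.26 FPKM in busulfan library 3 and at 1.92 to 7.13 FPKM elsewhere. The gene most like Mcpt8 across the libraries was S100a8, a calcium-binding protein abundant in neutrophils, with an r of 0.97, a rho of 0.83 and an r of 0.76 without busulfan libraries 1 and 2. Of 9 tested eosinophil genes 1 rose in busulfan against control, beside 0.0304% of all genes called there. In all, 7 were higher and 2 lower, and 7 had an unadjusted p under 0.05, beside 12.2% of all genes. The receptors Il5ra and Ccr3 had means of 5.04 and 14.8 FPKM in control and 2.94 and 13.0 FPKM in busulfan. The one that rose, Prg2, the major basic protein, was at 56.9, 33.8 and 19.7 FPKM in busulfan and at 2.06 to 6.72 FPKM in the other groups. Prg2 rose by 2.99 in busulfan against control (limma adjusted p = 0.0285) and fell by 3.14 in busulfan with L.J. against busulfan (adjusted p = 0.0135), and every busulfan library was above every other library. In busulfan with L.J. against busulfan 3 of the 9 eosinophil genes were called as lower, beside 1.66% of all genes called. Beside Prg2 these were Epx (-1.93, limma adjusted p = 0.0377) and Ear6 (-1.82, adjusted p = 0.0193). Without busulfan libraries 1 and 2 and L.J. library 3, which leaves 1 busulfan library, the Prg2 differences were 2.25 and -2.40 (adjusted p = 0.248 and 0.101). The part of these granulocyte levels in the values of Mcpt8 and Cpa3 was not tested.

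**Figure D3:**
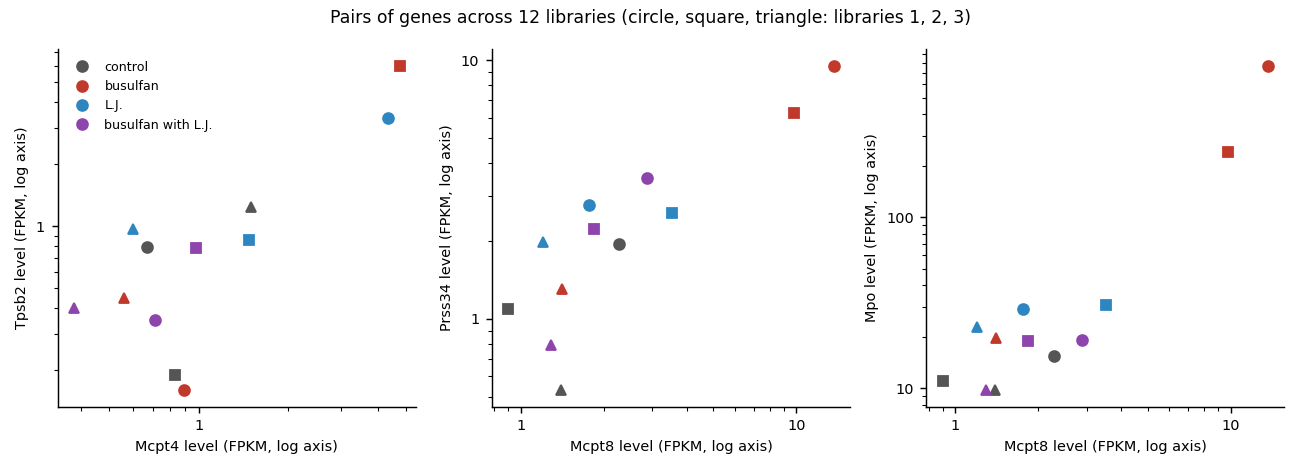
Levels of 3 pairs of genes in the 12 libraries, both axes in FPKM on log scales, coloured by group with a symbol per library number. Mcpt4 and Tpsb2 are both high in busulfan library 2 and L.J. library 1, whereas Mcpt8, Prss34 and Mpo are high in busulfan libraries 1 and 2, with Mcpt8 at 13.7 and 9.78 FPKM.

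The high-affinity IgE receptor joins an IgE-binding alpha chain (Fcer1a), a signal-amplifying beta chain (Ms4a2) and a gamma chain (Fcer1g) that other Fc receptors share. Fcer1a was at 0.06, 0.07 and 0.21 FPKM in control, 0.34, 0.49 and 0 FPKM in busulfan, 0.12, 0.12 and 0 FPKM in L.J., and 0.41, 0.22 and 0.06 FPKM in busulfan with L.J. It was thus listed at 0 in busulfan library 3 and L.J. library 3 and near 0 elsewhere, the groups overlapped, and it was not tested. Ms4a2 was at 1.01, 0.69 and 1.24 FPKM in control, 1.89, 2.77 and 1.52 FPKM in busulfan, 0.82, 0.85 and 0.99 FPKM in L.J., and 1.63, 1.33 and 0.75 FPKM in busulfan with L.J. Every busulfan library was above every control and every L.J. library, and 1 library of busulfan with L.J. reached into the busulfan range.

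Ms4a2 differed by 0.62 (SE 0.19, adjusted p = 0.27) in busulfan against control and by -0.45 (SE 0.19, adjusted p = 0.195) in busulfan with L.J. against busulfan, so it was not called although busulfan and control did not overlap. Nxpe5, a member of the neurexophilin and PC-esterase family, was the gene most like both chains, with an r of 0.89 for Ms4a2 and 0.88 for Fcer1a, which fell to 0.66 and 0.84 without the 2 most distant libraries of each. Fcer1g, which neutrophils and macrophages also make, was far higher, at 122 to 195 FPKM in the control, L.J. and busulfan with L.J. libraries and at 204, 285 and 146 FPKM in busulfan. Of the 50-base stretches of Ms4a2, 2.69% were shared with Ms4a4b, a T cell gene at 57.7 to 117 FPKM.

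Hdc, histidine decarboxylase, which makes histamine from histidine, was at 1.77, 1.53 and 1.63 FPKM in control, 1.84, 7.30 and 0.91 FPKM in busulfan, 1.59, 1.18 and 1.36 FPKM in L.J., and 2.40, 1.85 and 2.01 FPKM in busulfan with L.J. Busulfan held both the highest and the lowest library of all 12, and every library of busulfan with L.J. was above every control and every L.J. library. The differences were 0.43 (SE 0.39, adjusted p = 0.649) in busulfan against control and -0.21 (SE 0.39, adjusted p = 0.794) in busulfan with L.J. against busulfan. Without busulfan library 2 they were -0.18 and 0.40, so both turned with 1 library. That library was also the highest for Mcpt4, Tpsb2, Ms4a2 and Fcer1a.

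Gata3, a GATA-family factor best known from T helper type 2 cells, other T cells and innate lymphoid cells, followed another order. It was at 3.32, 3.98 and 5.11 FPKM in control, 2.43, 2.07 and 6.02 FPKM in busulfan, 3.46, 3.55 and 3.53 FPKM in L.J., and 4.14, 2.17 and 3.74 FPKM in busulfan with L.J. Busulfan library 3, the lowest of the 12 for Cpa3 and Hdc, was the highest for Gata3, and busulfan library 2 the lowest. All groups overlapped, and the differences were -0.28 (SE 0.28, adjusted p = 0.684) in busulfan against control and 0.02 (SE 0.28, adjusted p = 0.974) in busulfan with L.J. against busulfan. The difference between busulfan and control was -0.65 (adjusted p = 0.091) without busulfan library 3, -0.05 without busulfan library 2, -0.13 without busulfan library 1 and -0.14 without control library 3.

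T cell genes had the same extremes as Gata3 within the busulfan group. The summed level of 22 T cell genes was 684, 601 and 1280 FPKM in the busulfan libraries, against 666 to 1060 FPKM in control, 701 to 832 FPKM in L.J. and 535 to 907 FPKM in busulfan with L.J. Its part in the Gata3 values was not tested. The genes most like Gata3 were Fam102a (r 0.97, rho 0.87), Traf3ip3 (r 0.96, rho 0.92) and St8sia1 (r 0.95, rho 0.87), and each r was at least 0.92 without busulfan libraries 2 and 3. The gene model 9230102O04Rik on the same strand overlaps 77 exonic bases of Gata3 and the antisense model Gm13256 overlaps 155, and since the handling of strand is not given in the sources used here, reads from the overlaps cannot be told apart.

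**Figure D4:**
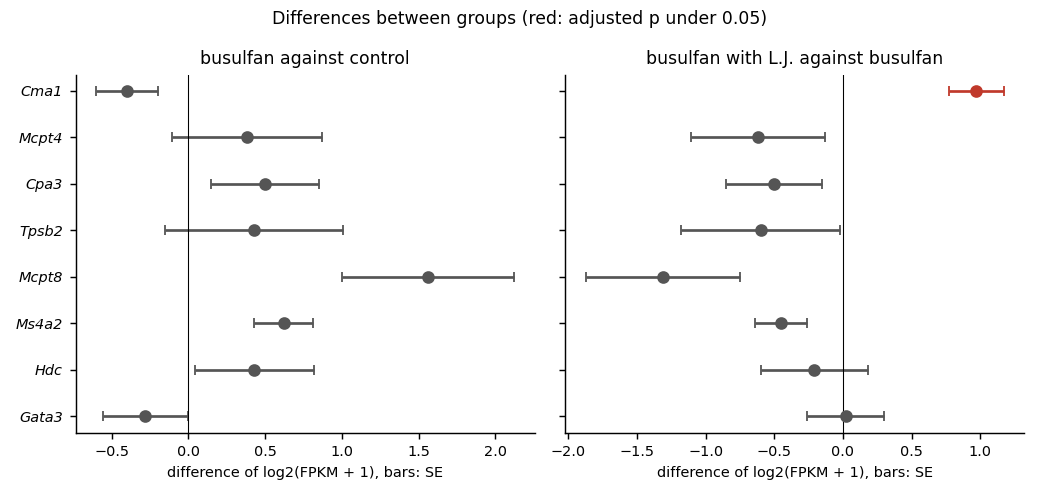
Difference of log2(FPKM + 1) with its SE (horizontal axis) for the 8 tested genes (vertical axis) in busulfan against control (left) and busulfan with L.J. against busulfan (right). Cma1, in red at 0.97, is the gene under an adjusted p of 0.05, and both panels use the same 3 busulfan libraries.

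The median difference of the 8 tested genes was 0.43 in busulfan against control, beside -0.03 for all genes tested, and -0.48 in busulfan with L.J. against busulfan, beside 0.05. Both medians rest on the same busulfan libraries. Cma1, at -0.40 and 0.97, and Gata3, at -0.28 and 0.02, lay on the other side of 0 from the median in each comparison. The genes most like Cma1 were Sema4b, a semaphorin, Fbln5, an elastic fibre protein, and Prcp, a carboxypeptidase of lysosomes, each with an r of 0.94, and with an r of at least 0.89 without busulfan library 1 and L.J. library 2. Their levels ran from 13.1 to 29.7 FPKM. No other member was among the 3 genes most like Cma1, and its r with the other 8 members lay between -0.50 and -0.04. Correlations of this kind share libraries and total RNA composition and are given as a description.

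Other genes of the 2 cell types were counted by lists that were drawn up with earlier results of these data known. Of 17 further mast cell genes, 16 were in the table under the symbol searched and 11 were tested. In busulfan with L.J. against busulfan 1 of the 11 was called, as higher, beside 1.66% of all genes called there. In all, 4 were higher and 7 lower, with a median of -0.09 beside 0.05 for all genes tested. At an unadjusted p under 0.05 there were 3 of the 11, beside 23.2% of all genes. In busulfan against control limma called 0 of the 11, with 2 of them at an unadjusted p under 0.05, beside 12.2% of all genes, and a median of -0.04. The called gene was Ltc4s, leukotriene C4 synthase, which makes the cysteinyl leukotrienes that mast cells, basophils, eosinophils and macrophages release. Ltc4s was at 2.94, 3.16 and 4.30 FPKM in control, 4.07, 3.04 and 2.29 FPKM in busulfan, 5.93, 5.82 and 4.83 FPKM in L.J., and 8.81, 6.32 and 10.6 FPKM in busulfan with L.J. Every library of busulfan with L.J. was above every library of the other 3 groups, and every L.J. library above every control and busulfan library.

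Ltc4s rose by 1.21 (SE 0.20, limma adjusted p = 0.0372) in busulfan with L.J. against busulfan, and the call held in 6 of 19 alternatives, with differences from 1.06 to 1.52 and adjusted p from 0.0125 to 0.17. Kit, the stem cell factor receptor that mast cells and blood progenitors carry, went the other way and was not called. It differed by -0.50 (SE 0.13, limma adjusted p = 0.0665) in busulfan with L.J. against busulfan. In busulfan against control it differed by 0.32 (SE 0.13, adjusted p = 0.35). Kit was at 8.70, 11.2 and 7.18 FPKM in busulfan and at 5.81 to 7.06 FPKM in the other groups, without overlap. Like Cma1, Ltc4s was higher in both groups that received L.J. than in busulfan without overlap.

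Of 8 further basophil genes 5 were tested, and limma called 0 of them in busulfan with L.J. against busulfan and 0 in busulfan against control, with medians of -0.70 and 0.29, beside 0.05 and -0.03 for all genes. At an unadjusted p under 0.05 there were 4 and 3 of the 5, beside 23.2% and 12.2% of all genes. The 5 tested genes did not share a direction: 1 was higher and 4 lower in the first comparison, and 4 higher and 1 lower in the second. The gene on the other side was Itga2, at 0.46 (limma adjusted p = 0.0745) and -0.36 (adjusted p = 0.299). Cd200r3, which was not tested, had means of 0.52 FPKM in control and 0.42 FPKM in busulfan. Il3ra, a chain of the receptor for interleukin 3, the growth factor of basophils, had an adjusted p of 0.058 in busulfan with L.J. against busulfan, from 15.7, 14.1 and 13.5 FPKM in busulfan to 8.64, 7.44 and 10.95 FPKM. Those 2 groups did not overlap. All 15 genes of signalling from the IgE receptor were tested and limma called 0 in either comparison, with medians of 0.15 and -0.05. At an unadjusted p under 0.05 there were 4 and 1 of the 15, near or below the 23.2% and 12.2% of all genes. The kinase Lyn had the smallest adjusted p in busulfan with L.J. against busulfan, 0.123. Of 7 genes of histamine handling 4 were tested, and limma called 0 in either comparison, with 1 and 0 of the 4 at an unadjusted p under 0.05, beside the same shares of all genes. Hrh2, a histamine receptor, had the smallest adjusted p in busulfan with L.J. against busulfan, 0.0571, from 3.76, 3.40 and 3.17 FPKM in busulfan to 2.33, 2.12 and 1.73 FPKM in busulfan with L.J., 2 groups that did not overlap.

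Of 11 further genes of the chromosome 14 protease cluster 3 were tested, and limma called 0 in busulfan with L.J. against busulfan and 0 in busulfan against control, with 1 of the 3 at an unadjusted p under 0.05 in each, beside 23.2% and 12.2% of all genes. Of the 11, 4, Gzmd, Gzme, Gzmf and Gzmg, were listed at 0 in all 12 libraries. Neighbours in the cluster thus stood at different levels: Ctsg reached 443 FPKM in busulfan library 1, where Mcpt8 stood at 13.7 FPKM, Mcpt4 at 0.89 FPKM and Cma1 at 0.54 FPKM. Gzmb, a granzyme of cytotoxic lymphocytes, was at 1.62 to 8.95 FPKM. Of 11 genes of type 2 lymphocytes 4 were tested, and limma called 0 in the 6 comparisons, beside 0% to 1.66% of all genes. At an unadjusted p under 0.05 there were 0 of the 4, beside 5.61% to 23.2% of all genes. With 4 genes such counts say little. The basophil and type 2 cytokine Il4 was at most 0.50 FPKM.

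Genes of stroma and vessels, cells among which mast cells reside, were counted in the comparison in which Cma1 was called. Of 11 tested, 5 rose in busulfan with L.J. against busulfan, beside 1.66% of all genes called there: Stab2, Tek and Kdr of endothelial cells, and the collagens Col3a1 and Col1a2, with limma adjusted p from 0.0197 to 0.0437. Without busulfan libraries 1 and 2 and L.J. library 3, which leaves 1 busulfan library, the differences were 1.23 for Stab2, 1.28 for Tek, 0.94 for Kdr, 1.02 for Col3a1 and 0.78 for Col1a2, with adjusted p from 0.0712 to 0.139. In the fit of all libraries 10 of the 11 were higher and 1 lower, with a median of 0.62, beside 0.05 for all genes tested. At an unadjusted p under 0.05 there were 6 of the 11, beside 23.2% of all genes. The collagen Col1a1 had means of 18.0 FPKM in busulfan and 18.9 FPKM in busulfan with L.J., and the stroma gene Dcn 36.2 and 30.8 FPKM. The summed level of the list was 161 to 214 FPKM in busulfan, 220 to 282 FPKM in busulfan with L.J., 180 to 244 FPKM in control and 195 to 285 FPKM in L.J. The part of these cells in the Cma1 difference was not tested.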

How the data were processed

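Total spleen RNA was sequenced in 12 libraries made by standard Illumina methods, per the labels' protocols. The authors deposited 1 table of FPKM values, which per the file headers hold 1 column for each library, with values given to 2 decimals. Bowtie 0.12.2 and the build mm10 are named in the submitters' processing notes, without a role, while counting, annotation, strand handling and filters are not given in the sources. Since FPKM scales to a library's total, a few genes of very high level lower the values of all others. The sum of FPKM was 511876 to 580364 per library, and whole read numbers could not be recovered from the values, so the depth is unknown.

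Every column of values matched 1 sample. Genes whose mean reached 1 FPKM in any group were tested on log2(FPKM + 1) with limma 3.58.1 in R 4.3.3 (intensity trend, robust empirical Bayes, 1 mean per group over all 12 libraries), with Benjamini-Hochberg adjustment at 0.05 for 6 contrasts. The fit was tested on simulated data. Alternatives were no filter, a pseudocount of 0.1, quantile normalization, fits of only the groups compared, an acinar covariate, a replicate block, and leaving out libraries. The genes, gene lists and tests were chosen with earlier results of these data known. The text names all 9 genes and, as far as they are described, the 3 genes most like each by Pearson r. From the lists counted above it names called genes or those of smallest p, though not all of them. Of 15 neutrophil genes 3, Cxcr2, Stfa2 and Pglyrp1, fell in busulfan with L.J. against busulfan, beside 1.66% of all genes, and are not described. Lists of hepatocyte, capsule muscle, adipocyte, mesothelium and blood progenitor genes were also run and are not described. Prss34, Cd200r3, Mcpt1, Mrgprb2, Mcpt9, Tpsg1, Hpgds, Il5ra, Ccr3, Mpo, Fcer1g, Kit, Gzmb, Il4, S100a8, Col1a1, Dcn and the cluster neighbours outside that rule were chosen after their values were seen. Promoters are from RefSeq (GRCm38.p6), and shared stretches and exon overlaps were computed from GENCODE M21.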

Additional observations from a re-analysis of the deposited data

How the results depend on the processing

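Of 587 values, which are 31 log2 differences under each alternative run, 435 kept their direction and their side of the threshold, 121 kept the direction and lost the call, 4 gained a call and 27 turned sign. The causes of lost calls and turned signs were not tested, beyond the number of libraries or genes each alternative leaves. All genes called are given below in the order busulfan against control, L.J. against control, busulfan with L.J. against busulfan, the same against L.J., and the same against control.

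Without the filter on low values 24, 23, 18, 1 and 30 genes were called, and 0 of the 9 described genes in busulfan with L.J. against busulfan. With a pseudocount of 0.1 the first 2 counts were 1 and 0, and with quantile normalization the second was 1. With only the groups compared in the fit, the counts were 0, 1 and 0 in the first 3 comparisons and 749 in the last, with 0 described genes called in busulfan with L.J. against busulfan. With the acinar covariate they were 0, 1 and 0, again with 0 described genes called. Gata3 then turned to 0.18 in busulfan against control and to -0.36 in busulfan with L.J. against busulfan, Hdc to 0.07 in the latter, and Cma1 to -0.10 in busulfan with L.J. against L.J. and to -0.02 in the interaction.

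Without busulfan libraries 1 and 2 and L.J. library 3 together, 1, 1 and 0 genes were called in the first 3 comparisons and 48 in the last, with 0 described genes called in busulfan with L.J. against busulfan. The differences between busulfan and control then turned to -0.34 for Mcpt4, -0.39 for Cpa3, -0.22 for Tpsb2, -0.03 for Mcpt8, -0.47 for Hdc and 0.47 for Gata3. Those between busulfan with L.J. and busulfan turned to 0.10 for Mcpt4, 0.39 for Cpa3, 0.05 for Tpsb2, 0.28 for Mcpt8, 0.69 for Hdc and -0.72 for Gata3.

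Whether replicate numbers pair the libraries was not settled. Of 18 same-numbered pairs 8 had a correlation of deviations over 0.1, and all 18 ran from -0.31 to 0.33. Pairs of unlike number were not computed, so these values have nothing to be set against. With a replicate block 55 genes were called in busulfan with L.J. against busulfan, 0 of them described here (Cma1 adjusted p = 0.0519), and 5 in busulfan with L.J. against control.

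With each library left out in turn, all genes called ranged from 0 to 829 in busulfan against control, 0 to 8 in L.J. against control, 2 to 1378 in busulfan with L.J. against busulfan, 0 to 1 against L.J., 3 to 23 against control and 0 to 511 in the interaction. The described genes called ranged from 0 to 1 in busulfan against control, 0 to 3 in busulfan with L.J. against busulfan and 0 to 1 in the interaction. Each upper end of these 3 came without busulfan library 3: Mcpt8 was called in all 3 comparisons, with Cma1 and Cpa3 beside it in busulfan with L.J. against busulfan. In busulfan against control the differences ranged from -0.20 to 0.74 for Mcpt4, from -0.38 to 0.92 for Tpsb2 and from -0.18 to 0.88 for Hdc. In busulfan with L.J. against busulfan they ranged from -1.09 to 0.21 for Tpsb2, from -0.66 to 0.40 for Hdc and from -0.20 to 0.39 for Gata3. Cma1 ranged from -0.08 to 0.30 in busulfan with L.J. against L.J.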
